A study of Mus musculus with 6 samples.

Results

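The genes described here encode the kinases and the phosphatase that calcium-bound calmodulin switches on in neurons: the CaM kinases Camk2a, Camk2b, Camk2g and Camk4, and the calcineurin subunits Ppp3ca, Ppp3cb and Ppp3r1. The 7 genes were named as a family, with earlier results of these data known. Every probe set annotated to one of them was taken. Probe sets were matched for 6 of the 7 genes, out of 8251 named genes in the series. Camk2a had 2 probe sets and the other 5 genes had 1 each, 7 probe sets in all. Camk2g was matched by no symbol in the annotation and is not analysed here.

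The samples are 3 arrays of deprived and 3 arrays of non-deprived visual cortex from adult wild-type C57Bl6 mice. Per the labels, 4 mice had 1 eye removed at postnatal day 100 and were killed 4 days later. Deprived cortex lies contralateral to the removed eye, whose fibres mostly cross to that side, and non-deprived cortex lies ipsilateral to it. Both groups therefore come from enucleated mice, and no cortex of an unoperated mouse is among the samples. The samples were pools, per the design text. Nothing in the labels says that the 3 pools of a group held different animals, so a p-value here reflects spread among arrays that may be technical in part or in whole.

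A rise in calcium at an active synapse loads calmodulin, which frees CaM kinases from their own inhibitory segment and also opens the active site of calcineurin. CaMKII, the holoenzyme built from Camk2a, Camk2b and related subunits, phosphorylates glutamate receptors and their scaffold in potentiated synapses and is required for ocular dominance plasticity in young visual cortex. CaMKIV, the product of Camk4, works in the nucleus, where it phosphorylates CREB, and calcineurin opposes many kinases at synapses and sends NFAT factors to the nucleus.

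Signal is the MAS5 summary of a probe set in arbitrary brightness units on a linear scale, and brightness is not compared between probe sets. The median signal of an array lay between 206.4 and 219.7 in deprived and between 202.8 and 218.3 in non-deprived arrays. On the control probe set for the 3′ end of 18S ribosomal RNA, non-deprived replicate 3 read 2688.7. The other 5 arrays read 661 to 980.9, so values of the members without non-deprived replicate 3 are given where it matters. Tbr1, a marker of cortical excitatory neurons, had 3563 ± 715 in deprived and 3258 ± 671 in non-deprived arrays. Of 7 such markers listed, 3 were tested. Their log2 changes, deprived minus non-deprived, were 0.13 (SE 0.17) for Tbr1, -0.06 (SE 0.11) for Neurod2 and 0.49 (SE 0.29) for Neurod6. Activity-induced genes, whose transcription follows neuronal firing, were lower in deprived arrays. Fos, an immediate-early transcription factor subunit, had 703 ± 87.7 in deprived and 2946 ± 236 in non-deprived arrays (mean ± SD, n = 3 each). Egr1, a zinc-finger factor of the same response, had 2846 ± 211 in deprived and 6248 ± 326 in non-deprived arrays, a log2 change of -1.13 (SE 0.09, limma adjusted p = 0.00048). Of 9 activity-induced genes tested, 8 fell past the threshold and 0 rose: Fos, Egr1, Egr2, Junb, Nr4a1, Dusp1, Dusp6 and Bdnf. Fosb, the ninth, had a log2 change of -0.69 (limma adjusted p = 0.23). The list was chosen with earlier results of these data known, so its count is not an independent check of the deprivation.

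In the same arrays, none of the 7 CaM kinase and calcineurin probe sets passed the threshold. Changes are deprived minus non-deprived on log2(signal + 16), tested with limma across 7453 probe sets, with Benjamini-Hochberg adjustment over all of them and a threshold of adjusted p under 0.05. The smallest adjusted p of a member was 0.95, and in the same fit 13 probe sets, or 0.174% of those tested, passed. At an unadjusted p under 0.05 there were 2 members, Ppp3cb and Ppp3r1, where 5.09% of all tested probe sets were found. Arrays of the groups did not overlap for the same 2 of 7 member probe sets, beside 10.1% of all tested probe sets. Of the 6 genes, each by its brightest probe set, 3 had a higher and 3 a lower fitted mean in deprived cortex. Their median log2 change was 0.03, against 0.01 over all 5653 genes tested, and their median absolute change was 0.15, against 0.13 over all genes. The smallest absolute log2 change past the threshold anywhere in this fit was 0.83.

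**Figure D1:**
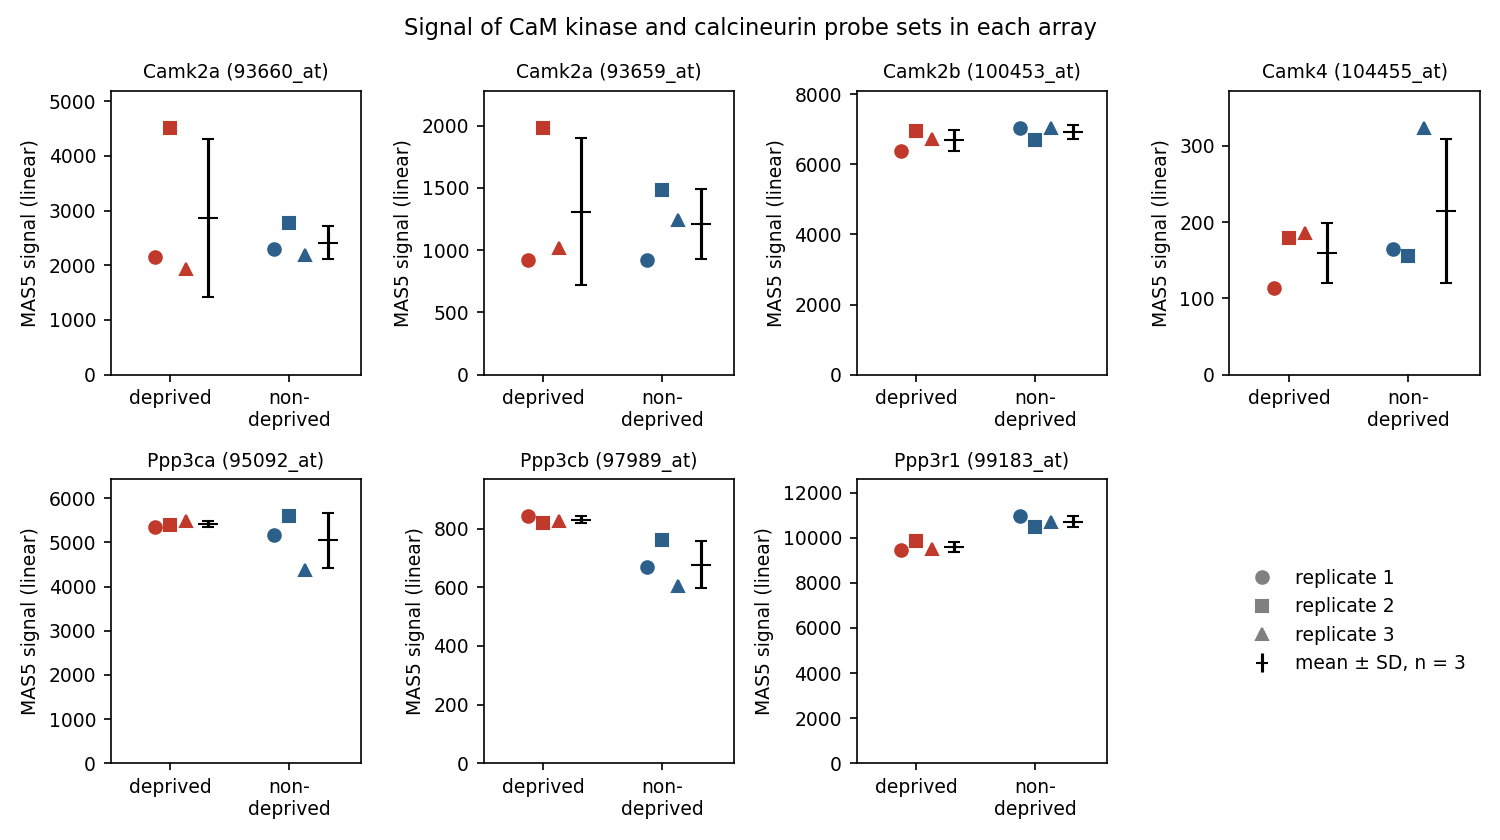
MAS5 signal on a linear axis from 0 (y) of each CaM kinase and calcineurin probe set in deprived arrays (left of each panel) and non-deprived arrays (right), with 1 symbol per replicate and bars for the mean ± SD of 3 arrays. Camk2a stands out in deprived replicate 2 on both probe sets and Camk4 in non-deprived replicate 3. Ppp3cb lies higher in all 3 deprived arrays and Ppp3r1 lower.

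Camk2a encodes the α subunit of CaMKII, the abundant kinase of excitatory synapses. Its brighter probe set read 2143.3, 4516.2 and 1923.2 in deprived replicates 1, 2 and 3, against 2291.3, 2764.9 and 2184.9 in non-deprived replicates 1, 2 and 3. Deprived replicate 2 was far above all other arrays, and the other 2 deprived arrays lay below every non-deprived array. The log2 change was 0.14 (SE 0.27, 95% interval -0.46 to 0.74, limma adjusted p = 0.98). Without deprived replicate 2 the sign turned, to -0.24 (SE 0.13, adjusted p = 0.90).

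The dimmer Camk2a probe set had 919.6, 1983.7 and 1019.3 in deprived replicates 1, 2 and 3, against 918.3, 1479.1 and 1239.9 in the non-deprived ones. Here too deprived replicate 2 was the highest array and the groups overlapped, with a log2 change of 0.05 (SE 0.27, 95% interval -0.56 to 0.66). The 2 Camk2a probe sets thus gave the same high array. On the brighter one that array was 1.63 times the next highest, a distance reached or passed by 42 of 5653 tested genes (0.743%), 13 of them in the same array. Over the other members the highest array was 1.00 to 1.03 times the next, except for Camk4.

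The coefficient of variation of Camk2a was 50.3% among deprived and 12.8% among non-deprived arrays on the brighter probe set. Its SE was larger than that of most genes, with 19.4% of tested genes having a larger one. The interval therefore spans a fold of 0.728 to 1.67. Camk2a is known to be strongly expressed in the hippocampus. Of 6 hippocampal markers listed, 3 were tested (Wfs1, Neurod6 and Zbtb20), and their summed signal was 1601 to 2240 in deprived and 1209 to 1612 in non-deprived arrays. The sum was highest in deprived replicate 2, where Camk2a was highest, and lowest in non-deprived replicate 2, where Camk2a was next highest. Wfs1 made up most of it, with 1696.7 in deprived replicate 2, its highest array. Neurod6 was also highest there, at 357, while Zbtb20 was at 185.8, its lowest deprived value. None of the 3 was at 0 in any array, and Neurod6 is also on the list of excitatory neuron markers. The summed signal of 3 tested markers of excitatory cortical neurons (of 7 listed), Neurod6 among them, was 4731 to 6135 in deprived arrays. It was 4549 to 5778 in non-deprived arrays, and the lowest deprived sum was in deprived replicate 2. The part of these hippocampal and excitatory markers in the Camk2a values was not tested.

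Among all tested genes outside the family, the 2 whose profile over the 6 arrays was most like that of Camk2a were Map2, which encodes a dendritic microtubule-associated protein, and Adcyap1r1, a receptor for the neuropeptide PACAP. Likeness is the root-mean-square difference between log2 profiles, each centred on its own mean over the arrays; it was 0.119 for Map2 and 0.148 for Adcyap1r1, where Camk2a itself had a root-mean-square deviation of 0.405. The second Camk2a probe set lay at 0.187 from the first. Map2 read 430.3, 772.6 and 428.9 in deprived replicates 1, 2 and 3, against 467.2, 545.4 and 419.2 in non-deprived replicates. It shared with Camk2a the high value of deprived replicate 2 and the next highest value of non-deprived replicate 2.

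**Figure D2:**
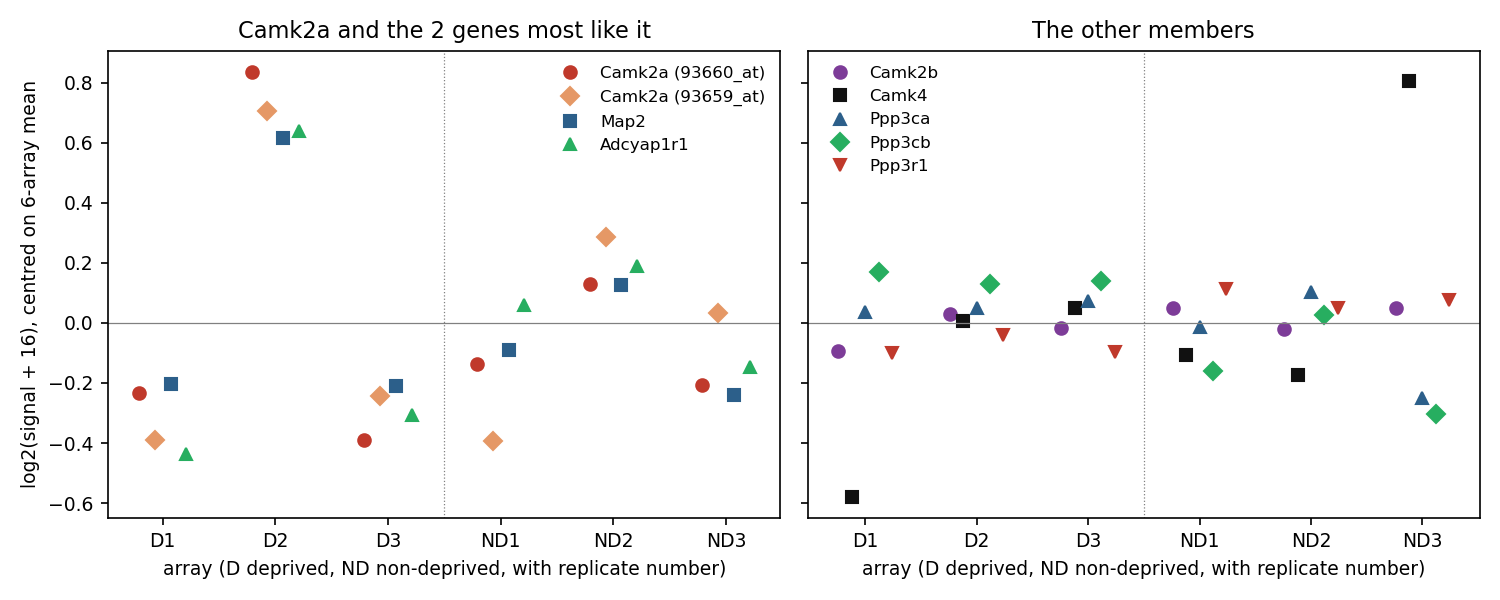
Log2(signal + 16) of each gene centred on its own mean over 6 arrays (y) in the deprived (D) and non-deprived (ND) arrays (x), for both Camk2a probe sets with Map2 and Adcyap1r1 (left) and for the other 5 genes (right). Camk2a, Map2 and Adcyap1r1 share their highest point in deprived replicate 2, and Camk4 has the widest scatter of the other genes.

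Camk2b encodes the β subunit, which binds actin and joins α subunits in the same holoenzyme. Its probe set read 6373.9, 6949.2 and 6728.6 in deprived replicates 1, 2 and 3, against 7048.7, 6701.8 and 7046.1 in the non-deprived ones. The groups overlapped and all arrays lay close together, deprived replicate 2 included. The log2 change was -0.05 (SE 0.07, 95% interval -0.22 to 0.11, limma adjusted p = 0.97), or -3.61% with an interval of -13.8% to 7.85%. Only 0.725% of tested genes had a smaller SE.

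The log2 difference between Camk2a and Camk2b within each array, which shows only whether the 2 changed unequally, was -1.57, -0.62 and -1.80 in deprived replicates 1, 2 and 3, against -1.61, -1.27 and -1.68 in the non-deprived ones. Its mean was -1.33 ± 0.62 in deprived and -1.52 ± 0.22 in non-deprived arrays, and the groups overlapped (exact permutation test, two-sided, p = 0.8, where 0.1 is the smallest p that 3 arrays against 3 can give). Without deprived replicate 2 the difference between groups was -0.16, against 0.20 with it.

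Camk4 encodes the nuclear kinase CaMKIV. It read 114.2, 179.3 and 185.1 in deprived replicates 1, 2 and 3, against 164.4, 156.2 and 323.9 in the non-deprived ones. Its mean over all arrays, 187.2, is close to the 134.7 that the filter on dim probe sets required, and it is not shown to be above background. Non-deprived replicate 3, which also had the high 18S reading, was 1.75 times the next highest, and the other 2 non-deprived arrays lay within the deprived range. The log2 change was -0.35 (SE 0.34, 95% interval -1.11 to 0.41, limma adjusted p = 0.97), and -0.03 (SE 0.34) without that array. These values bound the fold only between 0.463 and 1.33.

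Calcineurin pairs a catalytic A subunit, encoded by Ppp3ca or Ppp3cb in brain, with the calcium-binding B subunit encoded by Ppp3r1. Ppp3ca read 5351, 5400.5 and 5490.6 in deprived replicates 1, 2 and 3, against 5168.4, 5596.3 and 4380.1 in the non-deprived ones. The deprived arrays lay within 1.31% of each other as a coefficient of variation, against 12.2% for the non-deprived arrays, and the groups overlapped. The log2 change was 0.11 (SE 0.10, 95% interval -0.11 to 0.32, limma adjusted p = 0.97). It was 0.01 (SE 0.08) without non-deprived replicate 3, the lowest array for Ppp3ca.

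Ppp3cb, the β catalytic subunit, read 842.5, 819.3 and 825.7 in deprived replicates 1, 2 and 3, against 668.1, 761.1 and 602.6 in the non-deprived ones. All 3 deprived arrays lay above all 3 non-deprived arrays, which 5.50% of all tested probe sets showed in that direction. The means were 829 ± 12 in deprived and 677 ± 79.6 in non-deprived arrays. The log2 change was 0.29 (SE 0.13, 95% interval 0.00 to 0.58), a fold of 1.22 (1.00 to 1.5), with a limma adjusted p of 0.95, so the difference did not pass. Without non-deprived replicate 3, again the lowest array, it was 0.21 (SE 0.13, adjusted p = 1).

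Ppp3r1, the regulatory subunit, read 9471.1, 9871.9 and 9485.5 in deprived replicates 1, 2 and 3, against 10965.7, 10499.6 and 10695.7 in the non-deprived ones. All 3 deprived arrays lay below all 3 non-deprived arrays, which 4.59% of all tested probe sets showed in that direction. The means were 9609 ± 227 in deprived and 10720 ± 234 in non-deprived arrays. The log2 change was -0.16 (SE 0.06, 95% interval -0.30 to -0.01), or -10.3%, with a limma adjusted p of 0.95, and it did not pass either. Its SE was among the smallest in the fit, with 0.212% of tested genes below it. Quantile normalization moved the change to -0.10 (SE 0.06), by over 1.5 times.

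The 2 subunit genes whose arrays separated thus lay on opposite sides, Ppp3cb higher and Ppp3r1 lower in deprived cortex. The log2 difference between Ppp3ca and Ppp3cb within each array was 2.64, 2.70 and 2.71 in deprived replicates 1, 2 and 3, against 2.92, 2.85 and 2.83 in the non-deprived ones. The groups did not overlap, and the difference between their means was -0.18 (exact permutation test, two-sided, p = 0.1, the smallest possible, which does not reach 0.05). In relative terms Ppp3cb was thus higher against Ppp3ca in each deprived array than in any non-deprived array.

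**Figure D3:**
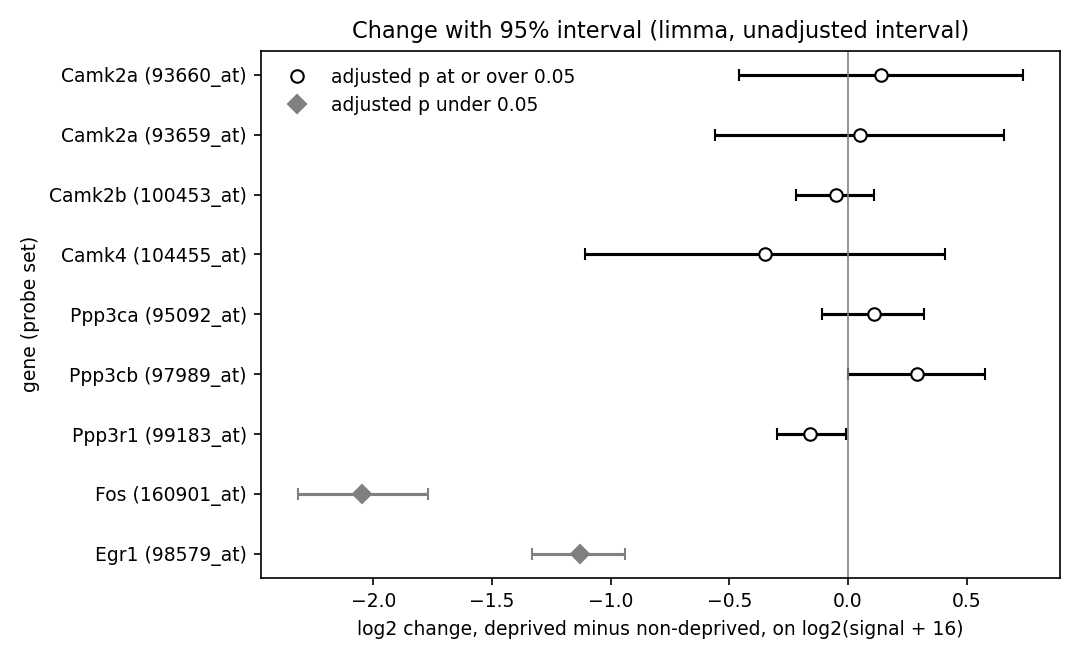
Log2 change, deprived minus non-deprived, with its unadjusted 95% interval (x) for the 7 CaM kinase and calcineurin probe sets and, in grey, for Fos and Egr1 (y). The intervals of Camk2b and Ppp3r1 are narrow and lie within 0.30 of 0, those of Camk2a and Camk4 are wide, and all 7 points lie far from Fos at -2.05 and Egr1 at -1.13.

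Markers of inhibitory neurons were the cell-type list whose summed signal separated the groups. Over 9 of 10 listed GABAergic markers it was 14320 to 16340 in deprived and 18090 to 18750 in non-deprived arrays, with none of the 9 genes past the threshold. The bright probe sets Pvalb, Sst and Npy carry much of that sum. Their log2 changes were -0.25 (SE 0.11), -0.39 (SE 0.08) and -0.42 (SE 0.11). Only Sst and Npy were without overlap between groups, deprived below, which 4.59% of all tested probe sets showed in that direction. Vip (log2 change 0.19, SE 0.20) and Dlx1 (0.42, SE 0.40) had a higher mean in deprived arrays, and the other 7 a lower one. Among those 7, Lhx6 had -0.48 (SE 0.22), Gad1 -0.13 (SE 0.09), Gad2 -0.14 (SE 0.31) and Slc32a1 -0.09 (SE 0.17). In bulk tissue fewer cells of a type and less RNA per cell cannot be told apart. Summed signals of the astrocyte (7 of 8), oligodendrocyte (6 of 8) and microglia (6 of 7) markers overlapped between groups. The part of any of these in the values of Ppp3cb or Ppp3r1 was not tested.

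The stretches upstream of Ppp3cb and Ppp3r1 are shown because these were the 2 members whose arrays did not overlap, and because Egr1 and Fos, which encode DNA-binding factors, fell in the same arrays. Each runs over the 250 bases before the gene's start as RefSeq places it in GRCm38.p6, 5′ to 3′ along the gene, with capitals marking matches to the motifs searched. Ppp3cb lies at chr14:20546574-20546823 on the minus strand and Ppp3r1 at chr11:17159048-17159297 on the plus strand.
Ppp3cb: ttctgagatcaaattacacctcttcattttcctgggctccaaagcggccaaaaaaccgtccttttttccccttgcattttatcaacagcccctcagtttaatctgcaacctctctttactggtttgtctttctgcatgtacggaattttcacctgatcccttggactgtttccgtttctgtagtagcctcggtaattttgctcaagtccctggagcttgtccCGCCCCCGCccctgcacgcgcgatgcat
Ppp3r1: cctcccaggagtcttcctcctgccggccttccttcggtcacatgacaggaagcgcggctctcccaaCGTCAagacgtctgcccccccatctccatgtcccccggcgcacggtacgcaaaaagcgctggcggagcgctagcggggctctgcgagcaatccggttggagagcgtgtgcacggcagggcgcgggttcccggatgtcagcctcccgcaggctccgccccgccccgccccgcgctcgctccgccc

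The motifs searched on both strands were GCGNGGGCG for Egr factors, TGANTCA for Fos and Jun, and TGACG, with TGACGTCA as the full site that contains it, for CREB. The Ppp3cb stretch held 1 Egr match, at bases -28 to -20 before the start, and none of the others. The Ppp3r1 stretch held 1 TGACG match, at bases -184 to -180, and none of the others. Of 32851 mouse stretches of the same length in the RefSeq table, 4.70% held the Egr motif, 17.8% TGACG, 1.55% TGACGTCA and 6.75% TGANTCA. Camk2b, the third member in that table, had 3 Egr matches in a stretch of 78.4% G and C, and its groups overlapped; that stretch precedes a start other than the outermost one in the RefSeq gene table, unlike those of Ppp3cb and Ppp3r1. These matches describe letters in the sequence and were not tied to the array values.

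The genes around the family were taken from 6 lists holding 90 genes besides the members: calmodulin and the proteins that sequester it, other CaM kinases and their relatives, other calcineurin subunits with regulators and NFAT factors, synaptic targets, nuclear targets, and the calcium channels, stores and pumps that set the calcium signal. Of these, 45 were tested and 0 passed in either direction by limma, with adjusted p from 0.95 to 1. At an unadjusted p under 0.05 there was 1 gene (2.22%, against 5.09% of all tested probe sets). For 4 genes (8.89%, against 10.1% of all tested probe sets) the groups did not overlap. Shares of the lists count 1 probe set per gene, the brightest, so the units of each pair differ. The median log2 change of the 45 was 0.00.

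Upstream of the kinases and the phosphatase, 4 of 7 calmodulin and sequestering genes were tested, with a median log2 change of 0.05 and none past the threshold. Neurogranin, encoded by Nrgn, holds calmodulin at the postsynaptic membrane when calcium is low. It had 9024.8, 8353 and 8499.1 in deprived replicates 1, 2 and 3, against 9963.1, 8359.8 and 6825.6 in the non-deprived ones, which bracket the deprived values on both sides (log2 change 0.06, SE 0.12). Gap43, its presynaptic counterpart, had a log2 change of 0.09 (SE 0.11). Of the calcium channels, stores and pumps, 11 of 19 were tested, with a median of -0.07 and none past the threshold. Atp2b2, a plasma membrane pump that clears calcium, had 774.5, 1275.9 and 1075.2 in deprived replicates 1, 2 and 3, against 1238.2, 1536 and 1293.2 in the non-deprived ones. Deprived replicates 1 and 3 lay below every non-deprived array, and the change was -0.40 (SE 0.18, limma adjusted p = 0.95). Itpr2, an intracellular calcium release channel, had 0.47 (SE 0.25) on its brightest probe set. It had -0.61, 0.18 and -0.98 on 3 dim probe sets below the filter.

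Among other CaM kinases and related kinases, 5 of 16 genes were tested, with a median of -0.17 and none past the threshold. Camk2d, a further CaMKII subunit, had a log2 change of -0.34 (SE 0.38) at a mean signal close to the filter, and the calmodulin-dependent kinase Eef2k, which slows translation elongation, -0.19 (SE 0.63). Among calcineurin partners, 7 of 17 were tested, with a median of -0.04 and none past the threshold. Rcan3, a regulator of calcineurin, had a change of 0.74 with an SE of 0.58, and Nfatc3, a factor that calcineurin sends to the nucleus, 0.41 (SE 0.26). Both are dim, and their intervals include 0.

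Of the synaptic targets, 11 of 18 were tested, with a median of 0.02 and none past the threshold. Grin2a, an NMDA receptor subunit, had a change of 0.71 (SE 0.47). It read 360.5 in deprived replicate 2, against 83.4 to 142.4 in the other 5 arrays. Its mean signal, 148.2, is close to the 134.7 that the filter required, and its non-deprived mean, 98.43, lies below that level. The high value fell in the array in which Camk2a was highest. The probe set is dim, and a link between the values of the 2 genes was not tested. Dlg4, the PSD-95 scaffold gene, had 0.18 (SE 0.10, limma adjusted p = 0.97). All its deprived arrays lay above all non-deprived ones, which 5.50% of all tested probe sets showed in that direction. It is 1 of the 4 genes of the 6 lists whose groups did not overlap. Of the nuclear targets, 7 of 13 were tested, with a median of 0.04 and none past the threshold. Crem, a CREB relative, had -0.23 (SE 0.29) and Crebbp, a CREB co-activator, 0.14 (SE 0.19).

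**Figure D4:**
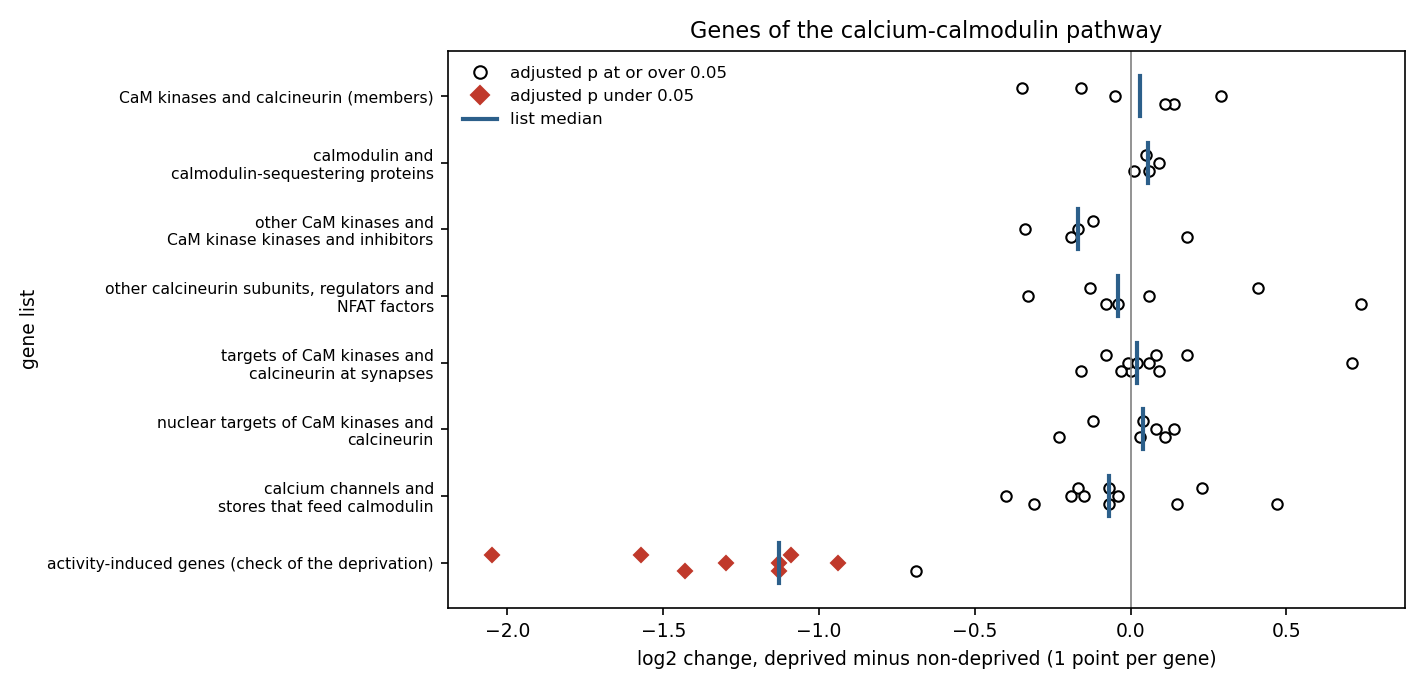
Log2 change, deprived minus non-deprived (x), of each tested gene, 1 point per gene, by gene list (y), with the list median as a bar. Points of the members and of the 6 surrounding lists are all open (not past the threshold) and their medians lie between -0.17 and 0.05, while 8 of 9 activity-induced genes are filled and lie below 0.

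Between members, profiles over the 6 arrays were closest for Camk2b and Ppp3r1, at a root-mean-square difference of 0.059, and for Ppp3ca and Ppp3cb, at 0.098. Camk2a and Camk4 were farthest apart, at 0.594. The measure is not scaled by spread, so genes that hardly vary lie close together and genes that scatter lie far apart. The members' own root-mean-square deviation was 0.051 for Camk2b, 0.083 for Ppp3r1, 0.117 for Ppp3ca and 0.175 for Ppp3cb. It was 0.405 for Camk2a and 0.414 for Camk4. A small difference between 2 members therefore does not show that they varied together. The genes outside the family closest to Ppp3r1 were Ube2n (0.026) and Zwint (0.031), those closest to Ppp3cb were Eef1d (0.049) and Nek6 (0.053), and those closest to Ppp3ca were Glrb (0.035) and Snx10 (0.040). Camk2b was closest to Ndufv1 and Rnf14 (0.017 for both) and Camk4 to D2hgdh (0.148) and Clgn (0.150). With 5647 genes compared over 6 arrays, such likeness only describes these arrays.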

How the data were processed

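The authors deposited 1 table of MAS5 signal intensity for 12488 probe sets on 6 arrays; the program name comes from the submitters' processing notes, and its version is not given in the sources used here. The deposited intensity columns had a common 2% trimmed mean of 500.3 before any further step, so a change in total mRNA cannot be seen. No detection calls or scanner files were used here. Arrays were brought to the same trimmed mean, which left the values nearly as deposited, 66 control probe sets were left out, and the 7453 probe sets in the top 60% by mean signal (at least 134.7) were tested on log2(signal + 16), which shrinks fold changes of dim probe sets. Group was the only term in limma 3.58.1 (R 4.3.3; lmFit, eBayes with an intensity trend), two-sided. Intervals are unadjusted 95% intervals of that fit. The script was tested on simulated data. Of the probe sets, 10855 had 1 gene symbol, 396 several and 1237 none here; 10839 were matched by ID to RefSeq (GRCm38.p6). Genes are represented by their brightest probe set. Named were all members, the 2 genes of each pathway list with the largest absolute change and any past the threshold, Fos and Egr1, and the 2 genes most like each member; Fosb and the cell-type markers were named after their values were seen. The members and lists were chosen with earlier results of these data known. The fit has no block, since replicate numbers were taken only to name pools. Deviations of same-numbered arrays had correlations of 0.003, 0.049 and -0.020, which alone cannot show whether the arrays were paired. The number of arrays, 3 a group, limits the precision.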

Additional observations from a re-analysis of the deposited data

How the results depend on the processing

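No CaM kinase or calcineurin probe set passed the threshold with a pseudocount of 1 or of 64, under quantile normalization, with every probe set tested, with the top 40% by signal, without the intensity trend, at an adjusted p under 0.10 or without any 1 array (0 under each). With the replicate number as a block the count of member probe sets was 0 and the Camk2a change 0.14 (SE 0.17). The 2 members at an unadjusted p under 0.05 were 0 in 7 of 15 alternatives (quantile normalization, the block, no intensity trend, and without deprived replicate 1, deprived replicate 3, non-deprived replicate 1 or non-deprived replicate 3), 1 in 3 and 2 in 5. Leaving the values unscaled repeats the fit, since the arrays already had a common level, and says nothing of stability. Camk2g had no value to recompute, and Camk4 was not among the top 40%. The sign of Camk2a turned in 1 of 15 alternatives, without deprived replicate 2 (-0.24), as did the difference between Camk2a and Camk2b (-0.16 against 0.20); the cause was not tested. Leaving out each array in turn gave -0.24 to 0.37 for Camk2a, -0.08 to -0.02 for Camk2b, -0.52 to -0.03 for Camk4, 0.01 to 0.19 for Ppp3ca, 0.21 to 0.38 for Ppp3cb, -0.18 to -0.14 for Ppp3r1, -0.16 to 0.43 for Camk2a minus Camk2b and -0.20 to -0.16 for Ppp3ca minus Ppp3cb. The count over all probe sets, 13, ranged from 7 to 10 when 1 array was left out: 7 without non-deprived replicate 2, and 8 without non-deprived replicate 3 or without deprived replicate 3. Among the 9 activity-induced genes the count of 8 ranged from 6 to 8. Without detection calls, a low signal such as that of Camk4 cannot be told from background.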
